A study of Mus musculus with 34 samples.

Results

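The Sox genes other than Sox2 were followed across 10 groups of mouse cells on Affymetrix expression arrays. Members were all probe sets whose only gene symbol in the platform annotation was Sox followed by a number, with Sox2 left out. This rule found 21 probe sets of 12 genes (Sox1, Sox3, Sox4, Sox5, Sox6, Sox7, Sox10, Sox11, Sox13, Sox15, Sox17 and Sox18) among 12422 probe sets that were not array controls, and 12 of the 8251 genes that a probe set named alone. Sox3 had 4 probe sets, Sox4, Sox6, Sox10, Sox11, Sox17 and Sox18 had 2 each, and the other 5 genes had 1. The rule gave 0 probe sets for Sox9, which is not analysed here.

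Sox proteins bind DNA through an HMG box related to that of the sex-determining factor SRY, bend it, and act with partner factors that decide which genes respond. They fall into groups: SOXB1 (Sox1, Sox2, Sox3) keeps neural progenitors undifferentiated, SOXC (Sox4, Sox11) acts in neuronal and mesenchymal progenitors, and SOXD (Sox5, Sox6, Sox13) lacks a transactivation domain and modulates other Sox proteins. SOXE (Sox9, Sox10) directs gonad, cartilage, neural crest and glia, SOXF (Sox7, Sox17, Sox18) directs endoderm and blood vessels, and Sox15 alone forms the mammalian SOXG group.

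Among the 10 groups, 6 were pluripotent or of the germ line. Embryonic germ cells (EGC, 3 arrays) were male lines from E12.5 at passage 19, and embryonic stem cells (ESC, 2 arrays) were male lines at passage 9 to 14, both grown in LIF and serum. The inner cell mass (ICM, 3 arrays) was isolated by immunosurgery from E3.5 embryos of mixed sex. Primordial germ cells were sorted as Oct4/GFP+ at E13.5 from females (PGC E13.5 female, 3 arrays) and males (PGC E13.5 male, 3 arrays), and at E11.5 from mixed sexes (PGC E11.5, 4 arrays). The other 4 groups were somatic. Neural stem or precursor cells (NSC, 2 arrays) were neurospheres of 8-week mice of mixed sex at passage 1 in EGF. Bone marrow haematopoietic stem or precursor cells (HSC, 2 arrays) came from 8-week males, sorted Sca-1+, c-Kit+, CD34-, Lin- and side population. Fibroblasts (MEF, 6 arrays) were from E13.5, of mixed sex, at passage 2 in serum. The Oct4/GFP- somatic cells from gonad and mesonephros (SGM, 4 arrays) were from E11.5 and of mixed sex. All 10 groups were C57Bl/6 apart from the ICM. Its replicates 2 and 3 were C57Bl/6 x C3H F1, and its replicate 1 crossed such F1 animals with CD1 into another F1. The labels call the replicates biological. They do not say how many lines or animals stand behind them.

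Values are log2 signals after RMA, a summary that corrects background and normalizes between arrays, so a difference of 1 is a 2-fold difference. The table gives no detection calls, so a low signal is only a low signal, and the level of one probe set says nothing about the level of another. Differences were tested with limma over all 12422 probe sets, and a probe set was called at an adjusted p under 0.05. Errors of group means are SD over arrays and errors of differences are SE from limma. Markers were read beside the labels. Of 4 measured haematopoietic stem markers, 4 were higher in HSC than in the other somatic groups, where 36.7% of all genes were higher. Pou5f1, the gene of Oct4, averaged between 9.38 and 10.67 in the 6 pluripotent groups and between 4.38 and 5.77 in the 4 somatic groups. Macrophage markers also averaged highest in HSC, at 7.55, with MEF next at 6.77. Germ cell markers averaged 9.01 in PGC E11.5 but 6.49 in EGC, beside 6.41 in NSC. The NSC and HSC arrays stood apart in the array's control probe sets for housekeeping genes. The actin 3′ control averaged 5.43 in NSC and 5.63 in HSC, against 10.2 to 12.9 in the other groups. The Gapdh 3′ control averaged 8.35 in NSC and 8.73 in HSC, against 12.6 to 13.9. The brighter probe set for the Actb gene averaged 11.97 in NSC and 11.22 in HSC, against 11.33 to 12.38 in the other groups. The dimmer Actb probe set averaged 9.69 in NSC and 7.93 in HSC, against 5.32 in MEF to 10.22 in EGC. The part of this control offset in the differences of NSC or HSC from other groups was not tested. Only some of those differences are also given between NSC and HSC or without them.

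Of the 21 Sox probe sets, 10 (47.6%) had group means that spanned at least 1 log2 unit, against 55.3% of all probe sets. Their median span was 0.98, against 1.14 over all probe sets. The 10 belonged to Sox11, Sox3, Sox4, Sox18, Sox17, Sox10 and Sox6, and the rest are called flat. For scale, Sox2 averaged between 10.14 and 11.82 in the pluripotent groups, 12.01 in NSC, and between 4.39 and 4.65 in HSC, MEF and SGM. Of 10 genes listed as partners or shared targets of Sox2 and Pou5f1, 10 were higher in pluripotent than in somatic groups. Of all genes, 28.9% were higher there and 34.7% lower. The list's median was 3.70 against -0.01 over all genes. Of 15 measured partners and targets of Sox9, which itself is not analysed here, 8 were higher and 0 lower in PGC E13.5 male than in PGC E11.5, where 30.9% of all genes were higher and 20.6% lower, with a median of 0.31 against 0.15. Gonad and mesonephros soma markers moved with it, 4 of 6 being higher and 0 lower, and their part was not tested. Wt1, Gata4, Nr5a1 and Wnt4 stand on both lists, so these counts are not independent.

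**Figure D1:**
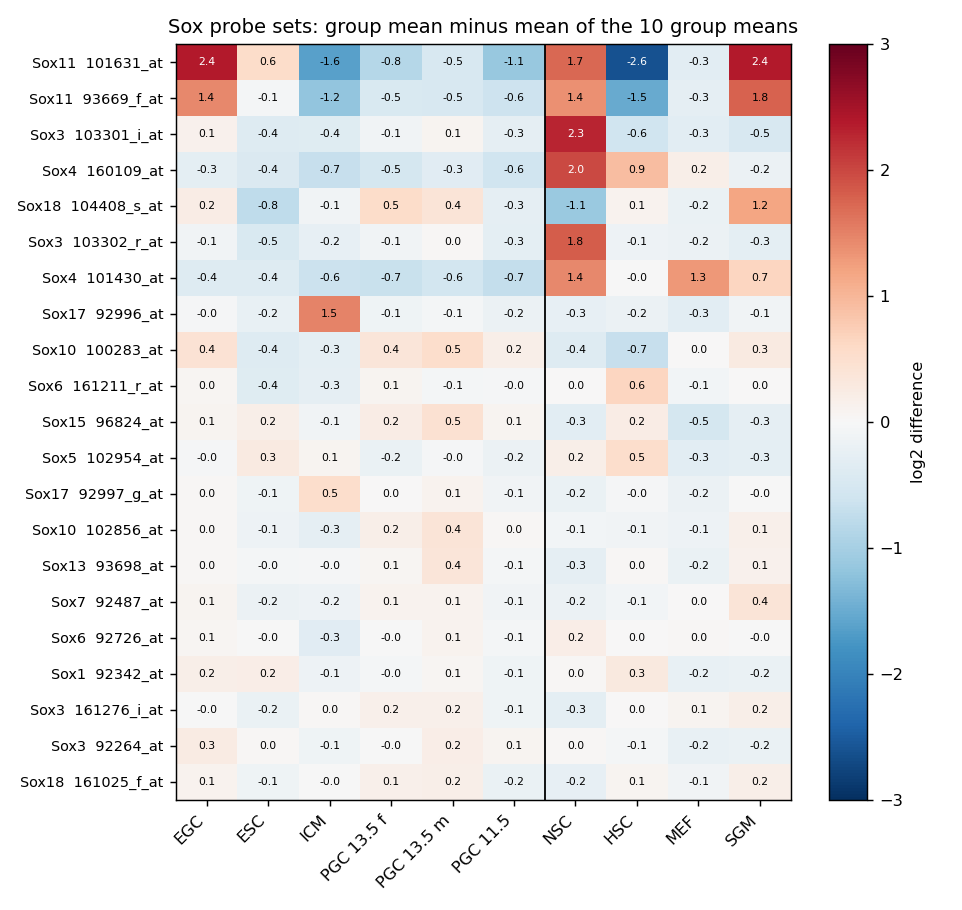
Rows are the 21 Sox probe sets in order of the span of their group means, and columns are the 10 cell groups, pluripotent left of the line and somatic right of it. Colour and number give the log2 difference between a group mean and the mean of the 10 group means; Sox11 shows the widest span, Sox3 and Sox4 peak in NSC, Sox17 in ICM and Sox18 in SGM.

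The SOXC genes were Sox11 and Sox4. Their upstream sequences are shown because their group means spread furthest among the 7 of the 12 Sox genes that were in the promoter table. Each is the 250 bases before the gene start in RefSeq GRCm38.p6, 5′ to 3′ on the minus strand, for Sox4 at chr13:28953700-28953949 and for Sox11 at chr12:27342719-27342968, with the letters CCAAT or its reverse complement ATTGG in capitals.
Sox4: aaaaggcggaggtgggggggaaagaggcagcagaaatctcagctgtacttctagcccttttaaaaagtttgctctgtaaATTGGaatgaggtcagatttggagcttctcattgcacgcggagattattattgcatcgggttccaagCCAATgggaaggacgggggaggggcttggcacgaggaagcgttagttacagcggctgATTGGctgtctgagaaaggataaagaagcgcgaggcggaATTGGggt
Sox11: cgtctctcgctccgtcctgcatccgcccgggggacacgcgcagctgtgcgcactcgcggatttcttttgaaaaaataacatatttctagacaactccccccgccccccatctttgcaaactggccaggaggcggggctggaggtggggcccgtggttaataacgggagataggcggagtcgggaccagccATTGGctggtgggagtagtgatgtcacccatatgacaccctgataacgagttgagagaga
The Sox4 stretch holds 4 such matches and the Sox11 stretch 1, and 33.8% of 32851 promoters of this length hold at least 1. The Sox11 stretch contains 17 CG dinucleotides and the Sox4 stretch 11, against a median of 6. A match is a stretch of letters and not a measured binding site.

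Sox11 was highest in EGC and SGM and lowest in HSC. On probe set 101631_at the signal was 11.02, 11.44 and 11.53 in EGC, 9.59 and 9.43 in ESC, and 6.91, 7.27 and 7.78 in ICM. Germ cells at E13.5 had 8.07, 7.88 and 8.37 in females and 8.26, 8.59 and 8.53 in males, and it was 7.95, 7.68, 7.57 and 8.00 in PGC E11.5. Among somatic cells it was 10.83 and 10.52 in NSC, 6.47 and 6.22 in HSC, 8.38 to 8.76 with a median of 8.67 in MEF, and 11.24, 11.66, 11.21 and 11.16 in SGM. The EGC and SGM arrays overlapped and those 2 groups were not called different (adjusted p = 0.968, limma), while NSC lay below SGM and above ESC without overlap. From MEF through PGC E13.5 male, PGC E13.5 female and PGC E11.5, no neighbouring groups were called different. The second Sox11 probe set, 93669_f_at, correlated with the first at r = 0.98 over the 10 group means, with SGM highest at 7.90 ± 0.26 (SD, n = 4) and HSC lowest at 4.61 ± 0.37 (SD, n = 2). The 3 genes whose group means followed Sox11 most closely were Igfbp2, Cdk2ap1 and Crmp1, each at r = 0.94 over 10 groups.

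Within the E11.5 gonad and mesonephros, Sox11 was low in the germ cells and high in the other cells. The difference of PGC E11.5 over SGM was -3.51 ± 0.16 log2 units, a fold of 11.4 (adjusted p = 1.46e-16, limma), and -2.39 ± 0.13 on 93669_f_at. In these bulk samples, fewer cells of a type and less RNA per cell cannot be told apart. Of the 21 Sox probe sets, 2 were higher and 9 lower in PGC E11.5 than in SGM, where 21.2% of all probe sets were higher, 23.4% lower and 44.6% called in all. The 9 comprised both probe sets of Sox11, Sox4 and Sox18, and 1 each of Sox3, Sox7 and Sox13; Sox15 and another Sox3 probe set were higher. Leaving out SGM replicate 3 left 7 of the 11: Sox4 160109_at, Sox3 161276_i_at, Sox3 92264_at and Sox13 then had adjusted p of 0.0566, 0.0575, 0.0735 and 0.139. Of 8 genes listed as linked to SOXC proteins in neurons and progenitors, 1 was higher in PGC E11.5 and 7 were lower. Of all genes, 23% were higher and 26.6% lower. The list's median was -1.62 against -0.04 over all genes. Marcks, a cytoskeletal PKC substrate, differed by -4.02 ± 0.18 (adjusted p = 1.57e-16) and Nrp1, a semaphorin and VEGF co-receptor, by -2.95 ± 0.19 (adjusted p = 4.73e-13). Tubb3, neuronal beta tubulin, was higher by 0.48 ± 0.14 (adjusted p = 0.00618). SGM also held markers of several cell types: the mean signal of 7 fibroblast markers was 7.87 to 8.28 in PGC E11.5 and 11.2 to 11.55 in SGM, and that of 4 erythroid markers 6.43 to 7.64 in PGC E11.5 and 11.2 to 11.95 in SGM. All 7 and all 4 were called lower in PGC E11.5, and their part in the Sox11 difference was not tested.

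Sox11 was higher in EGC than in ESC and in PGC E13.5 male, and higher in ESC than in ICM. EGC lay 1.82 ± 0.20 above ESC, a fold of 3.53 (adjusted p = 1.08e-07, limma), and 2.87 ± 0.18 above PGC E13.5 male, a fold of 7.30 (adjusted p = 1.47e-12). ESC lay 2.19 ± 0.20 above ICM, a fold of 4.55 (adjusted p = 3.63e-09). In each of these comparisons the arrays did not overlap, and 93669_f_at gave the same direction with differences of 1.51, 1.94 and 1.11. Of the SOXC-linked list, 6 of 8 were higher and 0 lower in EGC than in ESC, where 20.8% of all genes were higher and 18.6% lower. The list's median was 1.04 against 0.04 over all genes. Stmn2, a neuronal microtubule destabilizer, was higher by 2.80 ± 0.16 (adjusted p = 9.63e-13, limma) and Ccnd1, cyclin D1, by 1.59 ± 0.20 (adjusted p = 8.29e-07). Against PGC E13.5 male, 5 of the 8 were higher in EGC and 0 lower, where 14.5% of all genes were higher and 15.5% lower. The list's median was 0.73 against -0.08 over all genes. Fibroblast markers moved with the EGC over ESC difference: 3 of 7 were higher in EGC and 0 lower, and their mean signal was 8.52 to 8.69 in EGC, 8.18 to 8.42 in ESC and 12.8 to 13.1 in MEF. Sox11 itself averaged 11.33 ± 0.27 in EGC (SD, n = 3) and 8.62 ± 0.15 in MEF (SD, n = 6). The part of fibroblasts in the Sox11 difference between EGC and ESC was not tested.

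Over all Sox probe sets, 7 were higher and 1 lower in EGC than in ESC, where 20.5% of all probe sets were higher, 18.1% lower and 38.6% called. The members' median difference was 0.19 against 0.04. Beside Sox11, those higher were Sox10 100283_at, Sox18 104408_s_at, Sox7 and the pair of Sox3 probe sets that were high in NSC, and Sox5 was lower. Without EGC replicate 2 the calls of Sox3 103301_i_at, Sox3 103302_r_at, Sox5 and Sox7 were lost, with adjusted p of 0.0652, 0.0598, 0.0663 and 0.204, and the same 4 were lost without ESC replicate 1. Leaving out ESC replicate 1 or EGC replicate 2 left 4 called, and leaving out ESC replicate 2 left 5. Between EGC and PGC E13.5 male, 2 probe sets were higher (both Sox11) and 3 lower (Sox10 102856_at, Sox13 and Sox15), where 12.7% of all were higher, 14.9% lower and 27.7% called. Leaving out any 1 array of EGC, or PGC E13.5 male replicate 1 or 3, left 3 called. Without EGC replicate 1, Sox10 102856_at and Sox15 had adjusted p of 0.0721 and 0.167. Sox13 kept its call without each single array (difference -0.32 ± 0.09, adjusted p = 0.00683, limma).

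Sox4 was lower in the pluripotent than in most somatic groups, but its probe sets disagreed on HSC. On 160109_at the 6 pluripotent groups averaged from 7.69 ± 0.20 in ICM (SD, n = 3) to 8.09 ± 0.31 in EGC (SD, n = 3), and no neighbours in their order were called different. Among somatic cells the signal was 10.51 and 10.21 in NSC, 9.37 and 9.22 in HSC, 8.31 to 8.81 with a median of 8.54 in MEF, and 8.53, 7.89, 8.41 and 7.99 in SGM. On 101430_at the pluripotent groups averaged 7.33 to 7.66, and among somatic cells it was 9.37 and 9.60 in NSC, 7.88 and 8.18 in HSC, 9.11 to 9.75 with a median of 9.32 in MEF, and 8.76, 8.67, 8.95 and 8.43 in SGM. There HSC was not called different from ESC, the next group below it, nor NSC from MEF, the next below it. The correlation of the 2 probe sets over the 10 group means was r = 0.74. Lmf1, Phxr4 and Gbp3 followed 160109_at most closely, at r = 0.98, 0.97 and 0.96.

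**Figure D2:**
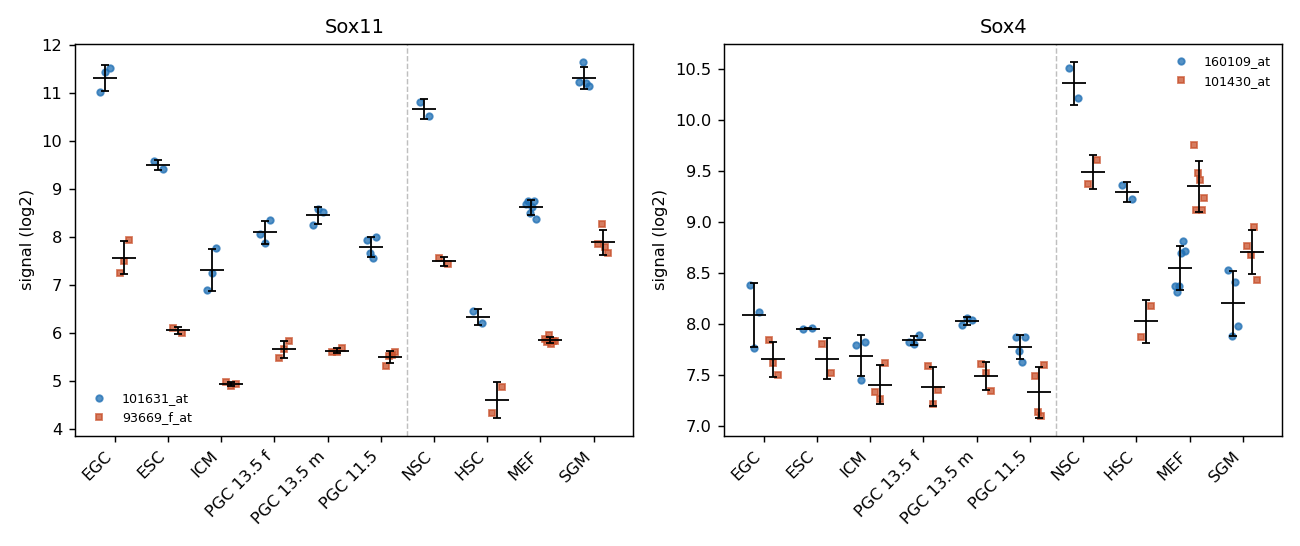
Log2 signal of the 2 Sox11 probe sets (left) and the 2 Sox4 probe sets (right) in each group; points are arrays, bars the group mean with SD, and the dashed line separates pluripotent from somatic groups. Sox11 101631_at reached 11.33 in EGC and 11.32 in SGM on average and 6.34 in HSC, and Sox4 was highest in NSC on both probe sets.

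On 101430_at all 18 pluripotent arrays lay below all 14 somatic arrays, with the mean of the pluripotent group means 1.40 ± 0.08 below that of the somatic ones (adjusted p = 4.24e-15, limma). On 160109_at the difference was -1.20 ± 0.07 (adjusted p = 5.5e-14) with overlap. Without the NSC and HSC arrays the differences were -1.54 on 101430_at and -0.48 on 160109_at, both still called. Sox11 differed by -0.49 ± 0.08 on 101631_at over all groups, and by -1.22 without NSC and HSC, both called, although EGC had the highest mean of the 10 groups. Over the 21 probe sets, 6 were higher and 7 lower in pluripotent than in somatic groups, where 28.3% of all were higher, 32.5% lower and 60.9% called, so the members' share was near that of all probe sets. Several of those calls rest on NSC and HSC: without them both NSC-high Sox3 probe sets and Sox10 100283_at changed sign. ESC lay below MEF for Sox4 by 1.69 ± 0.17 on 101430_at and by 0.59 ± 0.16 on 160109_at, and above MEF for Sox11 by 0.88 ± 0.18 on 101631_at (adjusted p = 8.55e-10, 0.00226 and 0.000132, limma). Of the 21, 4 were higher and 5 lower in ESC than in MEF, against 31.5% higher, 28.8% lower and 60.3% called of all. Among the 8 SOXC-linked genes, 1 was higher and 6 lower in ESC than in MEF. Of all genes, 32.3% were higher there and 30.3% lower. The list's median was -2.24 against 0.02 over all genes.

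Between MEF and SGM the SOXC genes lay in opposite directions. MEF lay 2.69 ± 0.14 below SGM for Sox11 on 101631_at, a fold of 6.46 (adjusted p = 3.29e-15, limma), and 0.64 ± 0.13 above it for Sox4 on 101430_at (adjusted p = 0.000153). The call for Sox4 on 160109_at, 0.34 ± 0.13, was lost without any 1 of MEF replicates 4, 5 or 6 or SGM replicates 2 or 4, where the difference was 0.24 to 0.31 with adjusted p of 0.0584 to 0.155. Over the members, 2 were higher and 8 lower in MEF than in SGM, where 19.9% of all were higher, 24.4% lower and 44.3% called. Among the 8 SOXC-linked genes, 4 were higher and 2 lower in MEF than in SGM. Of all genes, 21.9% were higher there and 27.2% lower. The list's median was 0.47 against -0.05 over all genes.

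Sox3, an X-linked SOXB1 gene that overlaps with Sox2 in function in the neural lineage, gave an answer that depended on the probe set. On 103301_i_at NSC had 9.58 and 10.29, while no array of another group exceeded 7.96. On 103302_r_at NSC had 9.54 and 9.99, and no other array exceeded 8.06. The NSC arrays stood alone on both, and the other 9 groups followed each other with no neighbours called different. On 92264_at NSC had 6.84 and 6.68 within group means of 6.50 to 6.97, and on 161276_i_at it had 4.83 and 5.05, the lowest of group means of 4.94 to 5.41. These 2 were flat, so the NSC peak was seen on 2 of 4 probe sets.

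The agreeing pair share their source: both were designed from the same sequence record, so they are not independent readings. They correlated at r = 0.98 over the 10 group means, while every other pair of Sox3 probe sets lay between -0.58 and 0.30. In Affymetrix naming, the endings _i_at and _r_at mark probe sets designed under relaxed rules, and 92264_at carries no such ending. NSC lay above the mean of the other somatic groups by 2.75 ± 0.14 on 103301_i_at, a fold of 6.71 (adjusted p = 1.25e-15, limma), and by 2.02 ± 0.10 on 103302_r_at (adjusted p = 5.08e-16). On 161276_i_at the difference was -0.38 ± 0.13 (adjusted p = 0.015), and without NSC replicate 1 it was -0.28 (adjusted p = 0.23), without HSC replicate 1 -0.29 (adjusted p = 0.0515). Between NSC and HSC, which share the low control signals, the differences were 2.88 and 1.95 on the first pair. Rlbp1, Gabrg1 and Rtn1 followed 103301_i_at most closely, at r = 0.99, 0.98 and 0.98, a likeness that rests on 1 high group.

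**Figure D3:**
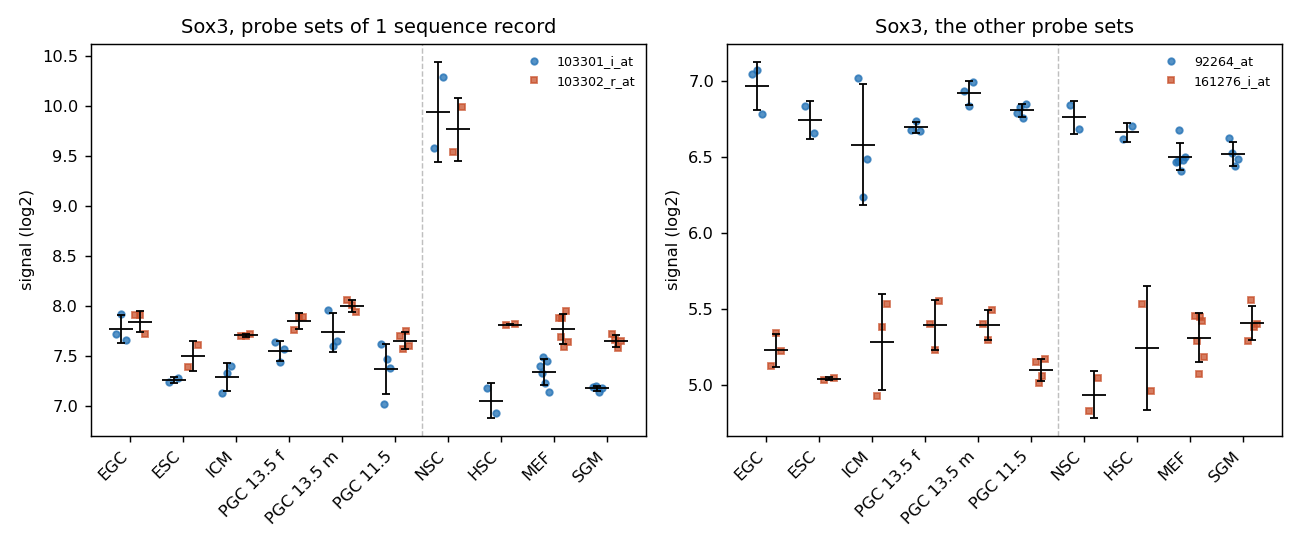
Log2 signal of the 4 Sox3 probe sets in each group; the left panel holds the pair designed from 1 sequence record and the right panel the other 2. Points are arrays and bars the group mean with SD; on the left NSC lies above 9.5 on every array and all other arrays lie at 8.06 or below, and on the right NSC does not stand out upward.

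Genes of the neural stem setting were high in NSC. Of 11 measured genes of the neural stem list, 8 were higher and 0 lower in NSC than in the other somatic groups. Of all genes, 28.1% were higher there and 30.6% lower. The list's median was 1.39 against -0.03 over all genes. Fabp7, a fatty acid binding protein of radial glia, was higher by 6.82 ± 0.16 (adjusted p = 2.98e-23, limma) and Ptprz1, a receptor phosphatase of neural progenitors, by 4.76 ± 0.10 (adjusted p = 1.8e-23). Sox4 and Sox11 were also high in NSC, Sox4 by 1.68 ± 0.15 on 160109_at and 0.79 ± 0.16 on 101430_at over the other somatic groups, and by 1.06 and 1.46 over HSC alone. Sox11 was higher by 1.91 ± 0.17 on 101631_at and 1.38 ± 0.14 on 93669_f_at, and by 4.33 and 2.89 over HSC alone. The Sox11 arrays of NSC nevertheless lay below those of SGM. Of the 8 SOXC-linked genes, 3 were higher and 5 lower in NSC than in the other somatic groups. Their median was -0.47 against -0.03 over all genes. Sox1, the other SOXB1 gene, was flat, with 7.58 and 7.25 in NSC within group means of 7.15 to 7.66. Of the 21 probe sets, 6 were higher and 6 lower in NSC, where 26.2% of all were higher, 30.4% lower and 56.6% called.

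Sox17, a regulator of primitive and definitive endoderm, was high in 1 group, the ICM. On 92996_at the ICM had 8.48, 7.97 and 9.42, and no other array exceeded 7.21. PGC E11.5 had 6.91, 7.01, 6.85 and 7.05, and ESC had 6.97 and 6.84. On 92997_g_at the ICM had 7.82, 7.57 and 8.21, and no other array exceeded 7.55. The ICM arrays lay above all others on both probe sets but spread widely, with an SD of 0.73 on 92996_at. Both probe sets were designed from the same sequence record and are not independent readings. On 92996_at the other 9 groups lay between 6.80 and 7.09 on average, and no neighbours among them were called different.

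ICM lay above PGC E11.5 by 1.67 ± 0.17 on 92996_at, a fold of 3.18 (adjusted p = 1.18e-08, limma), and by 0.63 ± 0.11 on 92997_g_at (adjusted p = 5.36e-05). ESC lay below ICM by 1.72 ± 0.21 and 0.64 ± 0.13 on the same probe sets (adjusted p = 4.49e-07 and 0.00081). These comparisons share the ICM arrays. Leaving out any single array kept the 92996_at difference over PGC E11.5 between 1.27 and 2.00. Timd2, Fbp2 and Pramel7 followed 92996_at most closely, at r = 0.99, 0.99 and 0.98, again over a pattern with 1 high group.

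Part of the endoderm list was high in ICM beside Sox17. Of 17 measured genes, 7 were higher and 0 lower in ICM than in PGC E11.5. Among all genes, 18.8% were higher and 23% lower in that comparison. Medians were 0.19 for the list and -0.04 over all genes. In ESC, 0 of the 17 were higher and 9 lower than in ICM, with a median of -0.43 against 0.04 over all genes. Among all probe sets, 15.6% were higher and 11.8% lower in ESC than in ICM. Col4a1, a collagen IV chain, was higher in ICM than in PGC E11.5 by 3.59 ± 0.28 (adjusted p = 3.73e-11, limma) and Dab2, an endocytic adaptor of extraembryonic endoderm, by 2.54 ± 0.37 (adjusted p = 2.62e-06). Dab2 differed between ESC and ICM by -3.10 ± 0.44 (adjusted p = 4.96e-06) and Col4a1 by -2.35 ± 0.33 (adjusted p = 4.55e-06). The endoderm factors Gata4 and Gata6, picked out here after their values were seen, differed between ICM and PGC E11.5 by -0.01 ± 0.10 (adjusted p = 0.947) and -0.21 ± 0.10 (adjusted p = 0.102) and were not called. The 5 primitive endoderm markers are all on the endoderm list too. Their mean signal was 8.84 to 8.98 in ICM and 7.58 to 7.80 in PGC E11.5, with 3 called higher. On average it was 8.93 in ICM, 8.75 in SGM and 8.48 in MEF. The whole endoderm list averaged 8.27 in ICM, 7.98 in SGM and 8.07 in MEF, so neither set was high in ICM alone. Markers of trophectoderm, the outer layer that immunosurgery is meant to remove, were also high in ICM. Of 5, 4 were higher and 0 lower in ICM than in PGC E11.5, among them Eomes by 3.55 ± 0.46 (adjusted p = 4.42e-07) and Krt18 by 3.33 ± 0.47 (adjusted p = 2.36e-06). Their mean signal ran from 7.04 to 9.54 over ICM arrays and from 6.38 to 6.69 over PGC E11.5 arrays, and their part in the Sox17 difference was not tested.

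Over the 21 Sox probe sets, 3 were higher and 5 lower in ICM than in PGC E11.5, where 18% of all were higher, 23.3% lower and 41.3% called. Both Sox17 probe sets and Sox5 were higher, and both Sox10 and both Sox11 probe sets and Sox6 92726_at were lower. The Sox11 difference on 101631_at, -0.48 ± 0.17 (adjusted p = 0.0244, limma), lost its call without ICM replicate 1 (-0.28, adjusted p = 0.219) or, with adjusted p of 0.0651 to 0.0709, without ICM replicate 2 or PGC E11.5 replicate 1 or 4. That on 93669_f_at, -0.56 ± 0.14 (adjusted p = 0.00163), kept its call without each single array. Leaving out ICM replicate 2 or PGC E11.5 replicate 4 left 4 of the 8 calls. Between ESC and ICM, 2 were higher (both Sox11) and 3 lower (both Sox17 and Sox18 104408_s_at), where 15.6% of all were higher, 11.8% lower and 27.3% called, and without ICM replicate 1 the count was 9. The Sox18 call (-0.66 ± 0.25, adjusted p = 0.0491, limma) held in 9 of the 32 fits that left out 1 array.

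Sox18, a SOXF factor of endothelial and lymphatic development, was highest in SGM and lowest in NSC. On 104408_s_at the signal was 6.04, 6.00 and 5.79 in EGC, 4.91 and 4.97 in ESC, and 5.22, 5.23 and 6.33 in ICM. Germ cells at E13.5 had 6.30, 6.44 and 6.03 in females and 6.23, 6.07 and 6.01 in males, against 5.57, 5.19, 5.20 and 5.82 in PGC E11.5. Among somatic cells it was 4.45 and 4.76 in NSC, 5.78 and 5.84 in HSC, 5.23 to 6.02 with a median of 5.49 in MEF, and 7.17, 6.60, 6.99 and 6.79 in SGM. SGM lay above every array of the other groups, while the groups between PGC E13.5 female and NSC formed a row with no neighbours called different. PGC E11.5 lay 1.44 ± 0.19 below SGM, a fold of 2.72 (adjusted p = 3.51e-07, limma), and MEF lay 1.37 ± 0.18 below it (adjusted p = 1.71e-07). EGC lay 1.00 ± 0.25 above ESC (adjusted p = 0.00217), and NSC lay 1.47 ± 0.21 below the other somatic groups (adjusted p = 1.18e-06), and 1.21 below HSC alone. The other probe set, 161025_f_at, was flat between 6.77 and 7.18 and correlated with the first at r = 0.89. Jund, Gfra3 and Sfxn2 followed 104408_s_at most closely, at r = 0.94, 0.93 and 0.92.

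**Figure D4:**
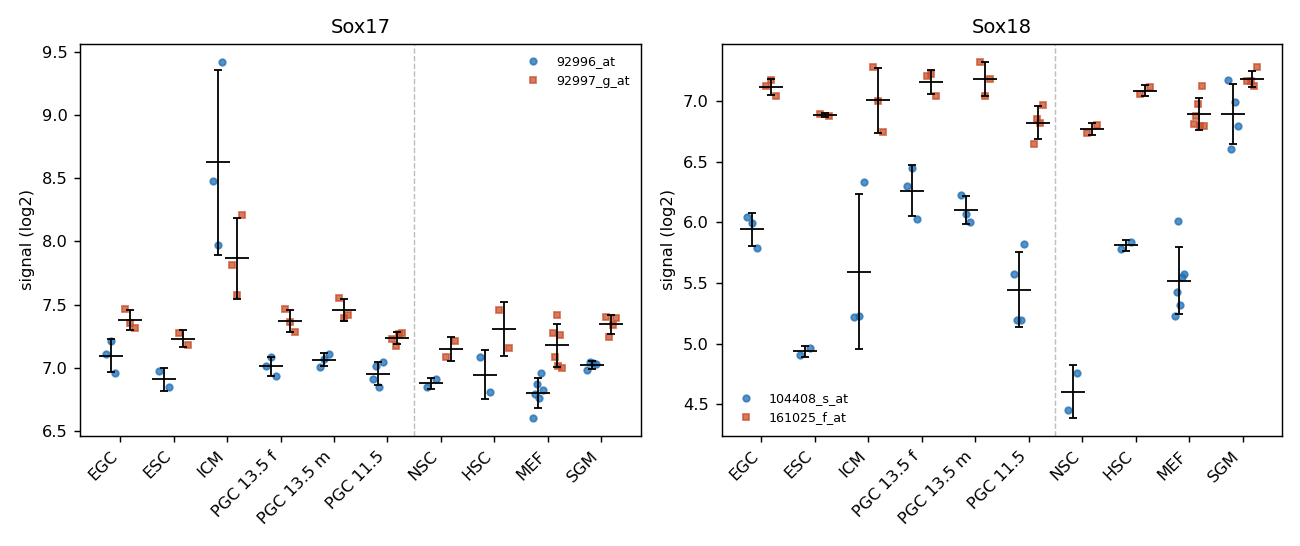
Log2 signal of the 2 Sox17 probe sets (left) and the 2 Sox18 probe sets (right) in each group; points are arrays and bars the group mean with SD. Sox17 92996_at averaged 8.62 in ICM and at most 7.09 elsewhere, and Sox18 104408_s_at averaged 6.89 in SGM and 4.61 in NSC.

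Endothelial genes lay on the same side as Sox18 between germ cells and the surrounding soma. Of 15 measured genes of the endothelial list, 0 were higher and 10 lower in PGC E11.5 than in SGM. Of all genes, 23% were higher there and 26.6% lower. The list's median was -0.44 against -0.04 over all genes. Nr2f2, a venous and mesenchymal nuclear receptor, differed by -3.14 ± 0.21 (adjusted p = 1.03e-12, limma) and Emcn, an endothelial sialomucin, by -2.76 ± 0.13 (adjusted p = 1.97e-16). Sox7, the third SOXF gene measured, was also highest in SGM, with 6.95, 7.03, 6.97 and 7.13 in PGC E11.5 against 7.55, 7.50, 7.59 and 7.46 in SGM. PGC E11.5 lay 0.51 ± 0.08 below SGM for Sox7 (adjusted p = 3.22e-06). For Sox17 92996_at the arrays overlapped, with 6.91, 7.01, 6.85 and 7.05 in PGC E11.5 and 6.98, 7.04, 7.04 and 7.03 in SGM, and no difference was called. The 5 endothelial markers are all on the endothelial list too, so they are not a separate reading. Their mean signal was 6.25 to 6.56 in PGC E11.5 and 7.31 to 7.48 in SGM. Of these 5, 3 were called lower in PGC E11.5, and their part in the Sox18 difference was not tested.

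Between E13.5 and E11.5 germ cells the Sox changes were small. In PGC E13.5 female 2 of 21 were higher and 0 lower than in PGC E11.5, both Sox18, where 14.1% of all were higher, 12.9% lower and 27% called. In PGC E13.5 male 10 were higher and 0 lower, where 30% of all were higher, 17.3% lower and 47.3% called, with a members' median of 0.25 against 0.15 over all probe sets. Both comparisons use the same PGC E11.5 arrays, so their values are set side by side. Sox18 104408_s_at was higher by 0.81 ± 0.21 in females (adjusted p = 0.00398, limma) and by 0.66 ± 0.21 in males (adjusted p = 0.0122). The male call was lost without PGC E13.5 male replicate 1 (0.59, adjusted p = 0.0515). Sox11 101631_at differed by 0.30 ± 0.17 in females (adjusted p = 0.197), which was not called, and by 0.66 ± 0.17 in males (adjusted p = 0.00301). Sox13, a SOXD gene, was higher in males by 0.42 ± 0.08 (adjusted p = 0.000265), with 9.64, 9.74 and 9.82 in PGC E13.5 male and 9.27, 9.21, 9.33 and 9.46 in PGC E11.5. In males both Sox10 probe sets were also higher, by 0.34 ± 0.10 on 100283_at and 0.36 ± 0.11 on 102856_at. Without PGC E13.5 male replicate 1 the male count was 6, and without PGC E13.5 female replicate 1 or 2 or PGC E11.5 replicate 1 the female count was 1. Of the endothelial list, 3 of 15 were higher in females, where 15.7% of all genes were, and 9 of 15 in males, where 30.9% were, with 0 lower in either. Its median was 0.19 in females, against 0.09 over all genes, and 0.27 in males, against 0.15 over all genes. Markers of other cell types moved with the male differences, with 4 of 6 for gonad and mesonephros soma higher, 3 of 5 endothelial, 3 of 7 fibroblast and 2 of 4 erythroid, and 0 lower in each. The mean signal of the soma markers was 7.41 to 7.54 in PGC E13.5 male, 7.05 to 7.33 in PGC E11.5 and 8.01 to 8.47 in SGM. For the erythroid markers it was 7.87 to 7.98 in PGC E13.5 male and 6.43 to 7.64 in PGC E11.5. For fibroblast markers it was 8.44 to 8.69 in the male and 7.87 to 8.28 in the E11.5 germ cells, and for endothelial markers 6.64 to 6.84 in the male and 6.25 to 6.56 in the E11.5 germ cells. The 5 endothelial markers are all on the endothelial list too. The part of these marker sets in the Sox differences was not tested.

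Females and males at E13.5 differed in 1 Sox probe set, Sox13, where 4.77% of all were higher in females, 2.08% lower and 6.85% called. Females had 9.52, 9.51 and 9.28 and males 9.64, 9.74 and 9.82, a difference of -0.30 ± 0.09 (adjusted p = 0.0358, limma). The arrays did not overlap. It lost its call when female replicate 3 was left out (-0.22, adjusted p = 0.282), and likewise for PGC E13.5 male replicate 2 (-0.30, adjusted p = 0.0935) or PGC E13.5 male replicate 3 (-0.26, adjusted p = 0.181).

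Sox10, which specifies neural crest and myelinating glia, spanned 1.20 on 100283_at, from 6.31 ± 0.24 in HSC (SD, n = 2) to 7.51 ± 0.07 in PGC E13.5 male (SD, n = 3), and of the neighbours in that order MEF and ICM alone were called different. EGC had 7.32, 7.54 and 7.37 and ESC had 6.70 and 6.48 without overlap, a difference of 0.82 ± 0.12 (adjusted p = 8.02e-06, limma). On 102856_at, which was flat, EGC had 8.28, 8.32 and 8.35 and ESC 8.18 and 8.08, a difference not called. Of 12 measured genes of the glia and neural crest list, 1 was higher and 4 lower in EGC than in ESC. Of all genes, 20.8% were higher there and 18.6% lower. The list's median was -0.13 against 0.04 over all genes. In NSC 3 of those 12 were higher and 2 lower than in other somatic groups, where 28.1% of all genes were higher and 30.6% lower, with a median of 0.02 against -0.03. On 100283_at NSC had 6.49 and 6.71, a difference of -0.25 ± 0.10 from the other somatic groups (adjusted p = 0.0391, limma). That call was lost without NSC replicate 1 (-0.15, adjusted p = 0.43), HSC replicate 1 (adjusted p = 0.108) or SGM replicate 1 (adjusted p = 0.0536), and against HSC alone the difference was 0.29 ± 0.13 (adjusted p = 0.0716). Gja10, Casp9 and Enc1 followed it most closely, at r = 0.98, 0.97 and 0.97.

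**Figure D5:**
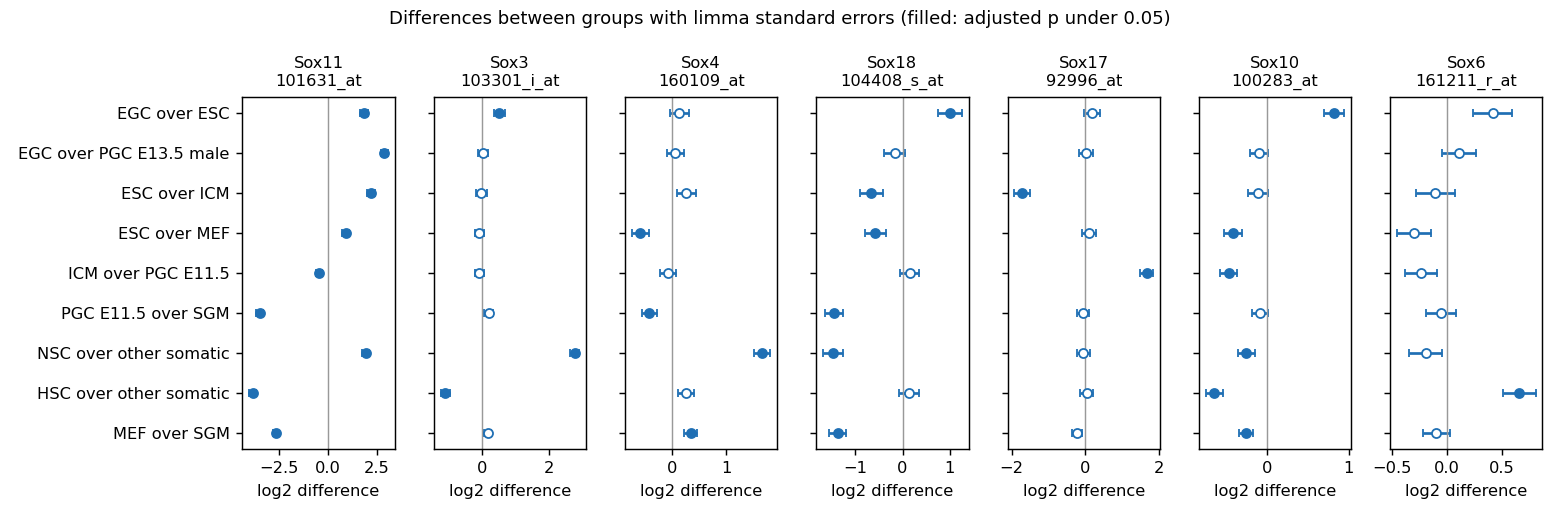
Log2 differences (points) with limma SE (bars) for the widest-spanning probe set of each of the 7 genes that were not flat, in 9 comparisons; filled points have an adjusted p under 0.05, open points do not, and each panel has its own horizontal axis. Sox11 differs by -3.51 in PGC E11.5 over SGM and by 2.87 in EGC over PGC E13.5 male, and Sox17 by 1.67 in ICM over PGC E11.5.

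HSC had the lowest Sox11 and the highest Sox5 signal. Of the 21 probe sets, 4 were higher and 6 lower in HSC than in the other somatic groups, where 37.5% of all were higher, 24.9% lower and 62.5% called. Sox11 101631_at lay 3.86 ± 0.17 below, a fold of 14.5 (adjusted p = 5.12e-17, limma), and below NSC alone by 4.33. Of the 8 SOXC-linked genes, 0 were higher and 7 lower in HSC, where 36.7% of all genes were higher and 27.5% lower. The list's median was -2.35 against 0.08 over all genes. Sox5, a SOXD gene of cartilage and neurons, had 5.76 and 5.63 in HSC, 4.70 to 4.99 with a median of 4.82 in MEF, and a difference of 0.68 ± 0.10 over the other somatic groups (adjusted p = 2.21e-06). Sox5 in ESC, at 5.50 and 5.38, also lay above MEF by 0.61 ± 0.11 (adjusted p = 2.43e-05). HSC and ESC were not called different for Sox5 (0.25 ± 0.13, adjusted p = 0.122, limma). The Sox5 probe set was dim in every group: its highest group mean, 5.70 in HSC, lay below the 25th percentile of all group means, 5.96. The Sox3 differences in HSC, -1.10 on 103301_i_at and -0.58 on 103302_r_at, are set against a mean that contains NSC. HSC lay at 7.18 and 6.93 on 103301_i_at, beside SGM at 7.19, 7.20, 7.14 and 7.18.

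Sox6, known for cartilage and erythroid development, reached a span of 1.01, and that rested on 1 array. On 161211_r_at HSC had 3.93 and 4.85, and every other array lay at 3.97 or below. The difference of HSC over the other somatic groups, 0.66 ± 0.15 (adjusted p = 0.000396, limma), was 0.19 (adjusted p = 0.294) without HSC replicate 2. The other Sox6 probe set, 92726_at, had 4.54 and 4.58 in HSC and was flat. Rela, Kcnn4 and Ndst2 followed 161211_r_at most closely, at r = 0.96, 0.93 and 0.93, over group means that were all highest in HSC. Whether that likeness rests on the same array was not tested.

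Sox15, which acts in muscle satellite cells and binds with Oct4 in mouse ESC, lay just below the span of 1, at 0.98. It had 7.09 and 6.93 in ESC and 6.06 to 6.65 with a median of 6.28 in MEF, a difference of 0.71 ± 0.14 (adjusted p = 5.45e-05, limma). Pluripotent groups lay above somatic ones by 0.38 ± 0.06 (adjusted p = 8.38e-06) and by 0.56 without NSC and HSC. HSC, with 7.06 and 7.05, did not follow the other somatic groups and lay 0.60 ± 0.13 above them (adjusted p = 0.000225). Sox1 had 7.56 and 7.57 in ESC and 7.03 to 7.32 with a median of 7.14 in MEF, a difference of 0.41 ± 0.12 (adjusted p = 0.00349). Of the muscle partners listed for Sox15, 2 of 4 were measured, of which 1 was higher and 0 lower in pluripotent than in somatic groups, where 28.9% of all genes were higher and 34.7% lower.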

How the data were processed

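RNA went through 2 rounds of amplification, per the labels' protocols. The authors deposited log2 signals made with RMA, per the submitters' processing notes, for 12488 probe sets in 34 columns; the version is not given in the sources used here. One ESC column equalled the mean of 2 others and one PGC E11.5 column the mean of 4 others (within 1e-06), so both were left out, leaving 32 arrays. Removing 66 array controls left 12422 probe sets, of which 10833 had 1 gene symbol. Array medians ran from 7.17 to 7.37. One limma 3.58.1 model (lmFit and eBayes, R 4.3.3) held all 10 groups as terms, with Benjamini-Hochberg adjustment over all probe sets in each comparison. The number of arrays limits the precision, most where a group has 2. Flat means that group means span under 1 log2 unit. Gene lists used the brightest probe set of each gene, and up to 2 called rises and 2 called falls of a list were named per comparison. For each gene that was not flat, the 3 genes with the highest correlation over group means were named. The Sox members and all lists were chosen with earlier results of these data known. The fit was tested on simulated data. Residuals of like-numbered replicates correlated from -0.53 to 0.48, with mixed signs. For PGC E11.5 and SGM, from the same tissue and stage, they were -0.31, 0.48, 0.13 and 0.32 for replicates 1 to 4. The labels give the numbers no meaning across groups, so replicates were not treated as pairs.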

Additional observations from a re-analysis of the deposited data

Results flagged for a closer look

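Within groups of 4 to 10 arrays, 2 values among 63 tested sets lay far from the rest, where chance gives about 1 in 20. Sox11 101631_at read 11.66 in SGM replicate 2, while the other 3 arrays read 11.16 to 11.24. Sox3 92264_at read 6.68 in MEF replicate 3, while the other 5 arrays read 6.41 to 6.51. Neither array was left out.

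Sox13 93698_at changed differently from E11.5 to E13.5 in the germ cells of the 2 sexes. The female minus male difference of the changes was -0.30, and because both changes use the same PGC E11.5 arrays it equals the difference of females over males at E13.5 given above. Its cause was not tested.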

How the results depend on the processing

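Of 273 differences (21 probe sets in 13 comparisons), 104 were called, and 64 of those kept their call under all 8 alternatives and without each of 32 arrays. None of the 104 changed sign under those settings. Removing dim probe sets kept 17 of the 21 members. A call on a probe set that this filter removed was counted as not kept, although it was not tested again there. In PGC E13.5 female over PGC E11.5, 5 were called with array weights. In PGC E13.5 female over male, 0 were called with the replicate block, with an intensity trend, or with the compared groups alone in the fit. In ICM over PGC E11.5, 4 were called with array weights and 4 with the compared groups alone, and in ESC over ICM 3 with the compared groups alone. The replicate block uses replicate numbers, to which the labels give no meaning across groups. Leaving out each array gave 7 to 11 calls in PGC E11.5 over SGM, 1 to 3 and 6 to 11 in PGC E13.5 female and male over PGC E11.5, and 0 to 1 in female over male. It gave 4 to 9 in ICM over PGC E11.5, 4 to 9 in ESC over ICM, 4 to 9 in EGC over ESC and 3 to 5 in EGC over PGC E13.5 male. A lone remaining ESC, NSC or HSC array is assumed to vary like the other groups. Without the NSC and HSC arrays, an alternative chosen after seeing the data, pluripotent over somatic turned to -0.0045 for Sox10 100283_at, 0.30 for Sox5, 0.24 for Sox3 103301_i_at, 0.0482 for Sox3 103302_r_at and -0.49 for Sox18 104408_s_at. The cause was not tested beyond the removal of those arrays. Without detection calls, low signals cannot be told from background.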
